A study of Mus musculus with 2 samples.

Results

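The genes described here are 8 members of the Prdm family, Prdm1, Prdm2, Prdm4, Prdm6, Prdm8, Prdm10, Prdm15 and Prdm16. They were measured in fetal mouse lung with and without a working copy of Foxj1, the forkhead transcription factor that drives motile ciliogenesis. A probe was taken when its gene name in the scanner file, or the current symbol of its transcript accession, was one of the 8. This found 14 of the 41167 probes left after spots flagged as outliers were dropped, each of the 14 printed as 1 spot. The 41167 probes stood for 27592 genes, and all 8 members were detected in at least 1 channel. Prdm16 and its relatives were picked with the ratios of this same array in view. Their values are therefore a description, and no test supports them.

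The homozygous sample was the lung of a male Foxj1lacZ homozygous (Foxj1 –/–) embryo at E16.5, and the heterozygous sample was the lung of a male Foxj1lacZ heterozygous (Foxj1 +/–) litter mate. Both were on an Sv129/CD-1 hybrid background, both carried at least 1 lacZ allele, and no wild-type lung was part of the comparison. Tissue outside the lobes was removed, and the RNA came from whole lobes although the source names speak of epithelium. Homozygous RNA carried Cy5 (red) and heterozygous RNA carried Cy3 (green) on 1 array without a dye swap, so genotype, dye and the difference between 2 embryos cannot be told apart. In lobes, fewer cells of a type and less RNA per cell cannot be told apart either.

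Prdm proteins carry an N-terminal PR domain, a relative of the SET domain of histone methyltransferases, and most carry C2H2 zinc fingers. They act in transcription and cell fate, some by methylating histones themselves and others by recruiting corepressors and methyltransferases. Prdm16 is best known in the mouse for directing brown fat cell identity and for its roles in palate, heart and arterial development and in neural and blood stem cells. Mecom (also called Prdm3 or Evi1) is its closest relative in sequence.

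Each value of Prdm16 below rests on 1 probe of 60 bases, annotated on the mm8 build to chromosome 4 between 153159925 and 153159929. Those coordinates span fewer bases than the probe, and its place within the transcript was not resolved here. The first 30 bases of this probe are shown because the largest difference in the family depends on it, beside those of Prdm1, which had the next lowest ratio, and of the brightest probe of Mecom.
Prdm16: gcaactgcatggtatgaaagaggaaatcgg
Prdm1: taggttaaccaaagcatgacctgacattga
Mecom: taactgtttatcaccactgtaccactaata
The whole Prdm16 probe shared at most 15 bases in a row with any of the 41173 other probes on the array, and at most 13 with the complement of one. Its GC content was 48.3%, within the range of 35.0% to 61.7% of the other family probes.

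Prdm16, which encodes a zinc finger transcription factor, had the lowest ratio of the family. Its probe had a mean signal of 216.4 in the homozygous channel and 893.1 in the heterozygous channel, over local backgrounds of 60.0 (homozygous) and 45.5 (heterozygous), and was well above background in both. After background correction and loess normalization its level was 7.27 in homozygous lung and 10.13 in heterozygous lung on the log2 intensity scale. The log2 ratio of homozygous over heterozygous was −2.86 ± 0.38, which is 7.24-fold lower. Here and below, ± is the scanner software's error of its own log ratio, which takes in noise of the spot and its channels but no variation from embryo to embryo. With the scanner software's processed signals, 56.5 (homozygous) and 619.7 (heterozygous), the probe was 11.0-fold lower.

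The direction was already visible before any normalization. The raw red over green signal was 0.242 for Prdm16, whereas it lay between 0.967 and 2.08 for the other 13 member probes, 11 of which were brighter in red. The median over all spots was 1.26.

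Prdm16 had the 11th lowest ratio among 21171 detected genes. Under the alternatives its rank ran from 10 (median centring, or no filter on dim probes) to 30 (scanner software's log ratio), with 17 at an offset of 0 and 19 with the series matrix. At least 2-fold lower were 398 of these genes (1.88%) and at least 2-fold higher were 122 (0.576%), while 49 (0.231%) were at least 4-fold lower. Among the 2757 genes measured in both channels whose mean level lay within 0.5 log2 units of that of Prdm16, 98 (3.55%) were at least 2-fold lower, and 5 including Prdm16 had a ratio as low as its own. Of the 8 members, 1 was at least 2-fold lower and 0 were at least 2-fold higher. Since the members were picked from this contrast, nothing is read from that share.

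**Figure D1:**
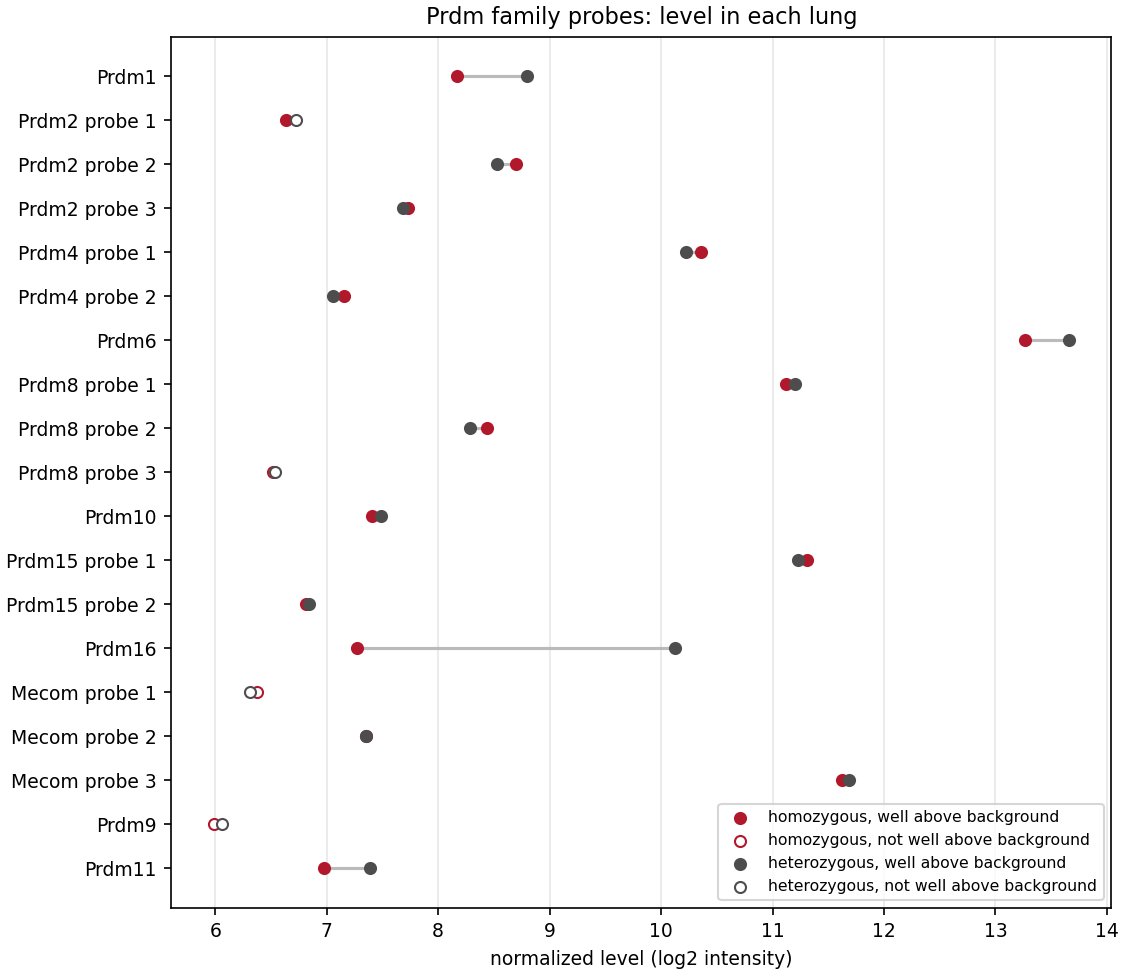
Normalized level (log2 intensity, x axis) of each Prdm family probe in homozygous (red) and heterozygous (grey) lung, joined by a line, with open circles for a channel not well above background. Prdm16 has the widest gap, 7.27 in homozygous and 10.13 in heterozygous lung, and the points of most other probes nearly coincide.

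Prdm1 (Blimp-1), a repressor that directs plasma cell and germ cell fate, had a level of 8.17 in homozygous and 8.80 in heterozygous lung. Its log2 ratio was −0.63 ± 0.22, 1.55-fold lower, from 1 probe whose raw signals were nearly equal at 374.8 (homozygous) and 374.3 (heterozygous). It was therefore low only relative to the overall brightness of the red channel. Across all detected genes 5.11% had a lower ratio than Prdm1.

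Prdm6, a repressor of smooth muscle differentiation, stood at 13.27 in homozygous and 13.66 in heterozygous lung, a log2 ratio of −0.39 ± 0.21. This direction held with the scanner software's log ratio (−0.35) but not with median centring. With median centring instead of loess, Prdm6 was at 0.27, near the median of all genes, which that scaling moved to 0.22. Prdm8, which represses transcription in developing neurons and retina, had 2 detected probes of opposite sign. Its brighter probe had levels of 11.12 (homozygous) and 11.21 (heterozygous), a ratio of −0.08 ± 0.20. The dimmer one had 8.44 (homozygous) and 8.29 (heterozygous), a ratio of 0.15 ± 0.21. The remaining Prdm8 probe was not well above background in either channel.

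The remaining members had ratios within the scanner error of 0. Prdm2 (RIZ), a histone H3 lysine 9 methyltransferase and tumour suppressor, was measured by 3 probes with log2 ratios of −0.08 ± 0.43, 0.05 ± 0.22 and 0.17 ± 0.21. The lowest of these cleared the background threshold in homozygous lung alone. The median probe had levels of 7.73 in homozygous and 7.68 in heterozygous lung. Prdm2 lies on chromosome 4 like Prdm16.

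Prdm4, a regulator of cell cycle exit in neural precursors, had 2 probes that read 0.10 ± 0.26 and 0.13 ± 0.20. These differ by less than either error, though their levels are far apart, 7.16 (homozygous) and 7.05 (heterozygous) for the first and 10.36 (homozygous) and 10.22 (heterozygous) for the second. Prdm15, a regulator of signalling in pluripotent mouse cells, likewise had a bright probe at 0.09 ± 0.20, with levels of 11.31 in homozygous and 11.23 in heterozygous lung, and a dim one at −0.02 ± 0.36. The only probe of Prdm10, a zinc finger regulator, had levels of 7.40 in homozygous and 7.49 in heterozygous lung, a ratio of −0.09 ± 0.24. The 7 members other than Prdm16 had a median log2 ratio of 0.03 and a range from −0.63 to 0.12, against a median of −0.0027 over all detected genes.

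Of 7 further family genes examined, 3 had a probe. Mecom, the closest relative, had 2 detected probes with ratios of −0.06 ± 0.20 and 0.0011 ± 0.25. The brighter of these had levels of 11.62 in homozygous and 11.69 in heterozygous lung. The remaining Mecom probe, for the transcript first named Mds1, was not well above background in either channel. Prdm11, a less studied member without the usual zinc finger array, was at 6.98 (homozygous) and 7.39 (heterozygous), a ratio of −0.41 ± 0.27.

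Prdm9, which places meiotic recombination sites in germ cells, was not well above background in either channel. Prdm12, Prdm13, Prdm14 and Zfp408 had no probe named for them and were not analysed here. Prdm16 was the only one of the 10 detected family genes reported here at least 2-fold lower, a size passed by 1.88% of all detected genes. The gap to the next family gene, Prdm1, was 2.23 on the log2 scale. None of the 10 was at least 2-fold higher, against 0.576% of all detected genes. With shares this small and a family picked from this contrast, nothing is read from these counts.

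**Figure D2:**
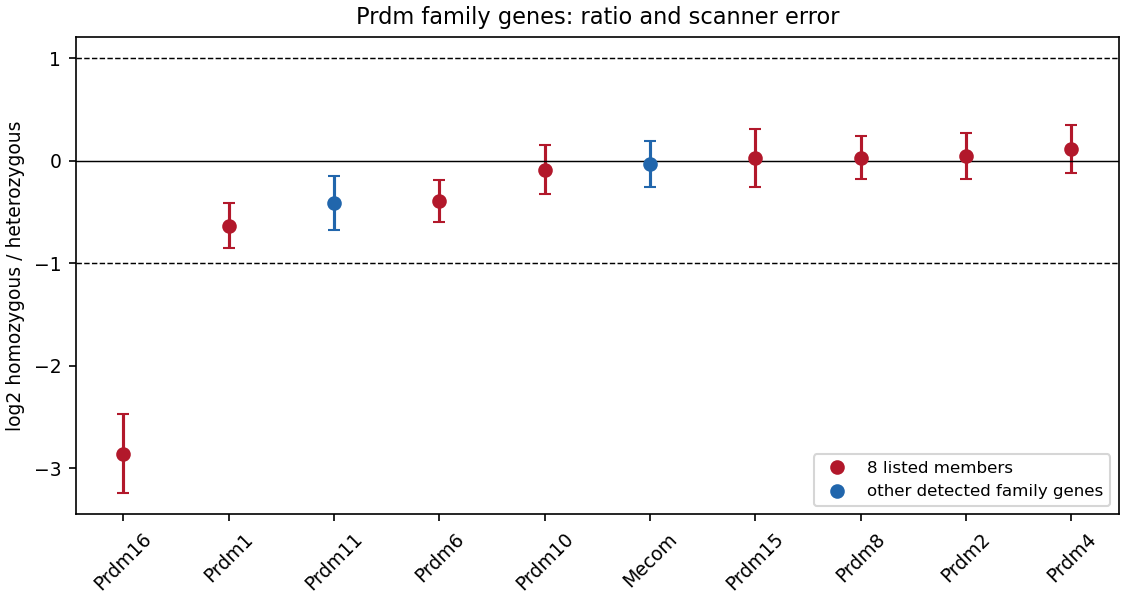
Log2 ratio of homozygous over heterozygous lung (y axis) for the 10 detected Prdm family genes reported here in rising order, with the scanner software's error as bars and dashed lines at a 2-fold difference. Prdm16 at −2.86 lies apart from the other 9, which run from −0.63 (Prdm1) to 0.12 (Prdm4).

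Prdm16 was the lowest family gene under each of 10 other ways of processing the array. Its log2 ratio ran from −3.46, with the log ratio of the scanner software or the series matrix, to −2.57 with median centring. The lowest of the other family genes was Prdm1 under 9 of these and Prdm11, at −0.55, under median centring. The closest any other family gene came to a 2-fold decrease was −0.76, for Prdm1 with the scanner software's ratio, under which 5.40% of all genes passed that size. Because Prdm16 has 1 probe and 1 spot, the 5 alternatives that change the dim-probe filter, the gene summary or the handling of outlier spots left its ratio as it was by construction.

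**Figure D3:**
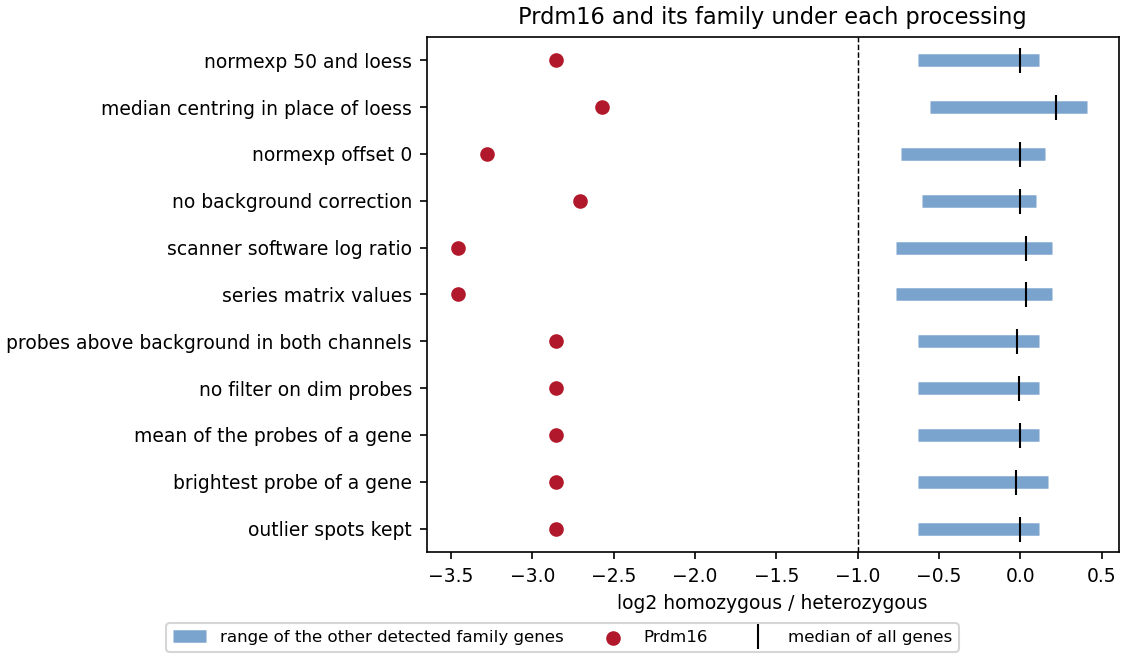
Log2 ratio of homozygous over heterozygous lung (x axis) for Prdm16 (points), the range of the other detected family genes (bars) and the median of all genes (ticks) under each way of processing the array (rows), with a dashed line at a 2-fold decrease. Prdm16 stays between −3.46 and −2.57, and no bar reaches the dashed line.

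The genes next to Prdm16 on chromosome 4 did not show its difference. The 5 protein-coding genes on either side, in the order of the GRCm38 gene table, were all measured in both channels, and their log2 ratios ran from −0.31 to 0.38. The direct neighbours were Arhgef16, a guanine nucleotide exchange factor, at 0.03 ± 0.20 and Actrt2, an actin-related gene of the testis, at −0.12 ± 0.33. Trp73, a p53 relative that acts upstream of Foxj1 in multiciliated cells, was the lowest of the 10, at −0.31 ± 0.21 with levels of 9.05 in homozygous and 9.36 in heterozygous lung.

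In promoter windows of 250 bases before the annotated start (RefSeq, GRCm38.p6), the forkhead core TGTTTAC was searched on both strands. Of the family, 12 genes had a window, but Prdm2, Prdm6 and Prdm14 had none. The motif occurred in 3.17% of 32851 windows of the gene table and in 1 of the 17 windows of these 12 genes. That window belonged to Prdm1 and is shown from chr10:44458963-44458989, minus strand, with the match in capitals as it reads on the opposite strand.
Prdm1 promoter: cgtagtgtggGTAAACAtggagggcaa
The Prdm16 window held no match to TGTTTAC, to the X-box core GTTGCC of Rfx factors (10.4% of all windows) or to the longer palindromic X-box, which contains that core (0.244%). A match or its absence describes these windows only.

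Among genes measured in both channels, those with a ratio nearest to that of Prdm16 were compared by the absolute difference of the 1 log2 ratio. Just below it stood Pifo (−3.05), which acts in primary cilium disassembly, the sperm flagellum gene Meig1 (−3.01), Efcab10 (−2.98) and an unnamed transcript (−2.97). Just above stood Dynlrb2 (−2.80), a dynein light chain, the muscle LIM protein gene Csrp3 (−2.79), the cardiac troponin gene Tnni3 (−2.74) and the axonemal gene Cfap126 (−2.74). Ciliary and heart muscle genes were therefore both among the nearest 8. Foxj1 itself was at −1.92 ± 0.30, with levels of 7.61 in homozygous and 9.53 in heterozygous lung. Whether its probe lies in the part removed by the lacZ allele was not settled here.

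Prdm factors work through shared partners, and 24 of 25 listed partner genes did not differ by 2-fold in the median of their probes. The median log2 ratio of the 25 was 0.10 after loess and 0.54 with median centring, which moved the median of all genes to 0.22. The exception was Tle1, a Groucho-type corepressor that partners Blimp-1. It was at 11.09 in homozygous and 13.05 in heterozygous lung, a ratio of −1.96 ± 0.27, but its 3 probes ran from −2.23 to −0.41. Next lowest was the histone deacetylase Hdac1 at −0.49 ± 0.21, and highest was the H3 lysine 9 methyltransferase Suv39h2 at 0.35 ± 0.21. Med1, named here for the spread of its 3 probes from 0.11 to 1.35, was at 0.33. The corepressors Ctbp1 (0.19) and Ctbp2 (0.23) and the methyltransferase Ehmt1 (0.20), all known to bind Prdm16, were singled out after their values were seen. The 30 listed methyltransferases with a SET domain had a median of 0.05 after loess, and none differed by 2-fold. With median centring their median was 0.49. They ran from Setdb2 at −0.34 ± 0.36, with Smyd1, a muscle methyltransferase, next at −0.18 ± 0.20, to Suv39h2.

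Genes listed for brown fat, the cell identity Prdm16 is best known for directing, were partly undetected, and some are general fat cell genes. Of 15 listed, 11 were detected, with a median of −0.30, and 1 was at least 2-fold lower. This was Fabp4, a fatty acid binding protein also made by endothelium, at 9.04 in homozygous and 10.65 in heterozygous lung, a ratio of −1.60 ± 0.26. Cox8b, a cytochrome oxidase subunit of brown fat and heart, was at −0.98 ± 0.25, and Dio2, which activates thyroid hormone, was the highest gene measured in both channels at 0.14 ± 0.21. The brown fat gene Ucp1 and the general fat cell gene Adipoq were not well above background in either channel, nor were Otop1 and Lhx8. The summed level of the detected genes was 12.41 in homozygous and 12.91 in heterozygous lung on the log2 scale.

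Markers of several other cell types were lower in the homozygous channel too. Cardiac muscle genes had a median of −1.38, and 9 of 16 were at least 2-fold lower. Their summed level was 14.32 in homozygous and 15.72 in heterozygous lung on the log2 scale. All 16 were well above background in both channels. Myl7, the atrial myosin light chain, was lowest at −3.52 ± 0.39, followed by Csrp3 (−2.79 ± 0.37) and Tnni3 (−2.74 ± 0.39), and Actc1, cardiac actin, was highest at −0.07 ± 0.20. Skeletal muscle genes had a median of −0.05, with the slow troponin Tnni1 (−2.15 ± 0.30) and the creatine kinase Ckm (−1.06 ± 0.23) at least 2-fold lower and Acta1 highest in both channels (0.25 ± 0.21).

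Multiciliated cell genes had a median of −1.17, with 9 of 17 at least 2-fold lower. The targeted gene Foxj1 itself (−1.92) is on this list and enters the median, the count and the summed level. Cfap126, the dynein light chain Dnali1 (−2.23 ± 0.37) and Ccdc113 (−2.20 ± 0.31) were lowest, and Rfx2 was highest at 0.17 ± 0.24. Their summed level was 13.02 in homozygous and 14.44 in heterozygous lung. Club and goblet cell genes had a median of −1.35 over 9 detected genes, with Scgb3a1 (−3.19 ± 0.38), Scgb1a1 (−2.47 ± 0.31), Cyp2f2 (−1.52 ± 0.25), Agr2 (−1.50 ± 0.26) and Scgb3a2 (−1.35 ± 0.26) at least 2-fold lower and Muc5b highest (−0.17 ± 0.26). Their summed level was 16.32 in homozygous and 17.67 in heterozygous lung. With median centring instead of loess the list medians were −0.43 (club and goblet), −0.92 (multiciliated) and −1.14 (cardiac). That scaling put the median of all genes at 0.22. Counted from 0, only the cardiac list stayed beyond 2-fold. Measured from that median, the multiciliated list did too, and the club and goblet list did not. The part of muscle, multiciliated or secretory cells in the Prdm16 difference was not tested.

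Other lists had medians nearer 0 after loess normalization. With median centring, which moved the median of all genes to 0.22, several stood higher. Lung epithelium was then at 0.82, smooth muscle at 0.77 and endothelium at 0.45, the last with its sign turned. Leukocyte and plasma cell genes were at 0.43 and neuronal genes at −0.23. Arterial endothelium (0.09) and skeletal muscle (0.09) were above 0 there but stayed below that median of all genes, as they did after loess. After loess, arterial endothelial genes, which mark a vessel type known to express Prdm16, had a median of −0.10 over 10 genes and none at 2-fold. Hey1 (−0.73 ± 0.21) and the gap junction gene Gja4 (−0.68 ± 0.21) were lowest and Cxcr4 (0.22 ± 0.21) highest. Endothelium as a whole had a median of −0.15 over 8 genes, from the growth factor receptor Kdr (−0.38 ± 0.21) and Emcn (−0.29 ± 0.21) to Tie1 (0.13 ± 0.20). Smooth muscle genes had a median of 0.21 over 8 genes, from Des (−0.02 ± 0.21) and Tagln (0.0034 ± 0.20) to Cnn1 (0.52 ± 0.21), while the smooth muscle regulator Prdm6 was at −0.39.

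Neuronal genes had a median of −0.05 over 5 detected genes, from Stmn2 (−0.67 ± 0.42) and Elavl4 (−0.22 ± 0.34) to Tubb3 (0.15 ± 0.21). Leukocyte and plasma cell genes had a median of 0.10 over 6, from the T cell gene Cd3e (−0.44 ± 0.21) and Sdc1 (−0.02 ± 0.20), a syndecan of plasma cells and epithelia, to the macrophage gene Cd68 (0.41 ± 0.21). Pax5 and Irf4, which mark B and plasma cells where Prdm1 acts, were not well above background in either channel. The 10 listed genes of lung epithelium, which check the labelled tissue, were all measured in both channels with a median of 0.17. Sftpb was at least 2-fold lower (−1.72 ± 0.26), Nkx2-1 was next at −0.15 ± 0.20, and Epcam was highest at 0.37 ± 0.21.

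**Figure D4:**
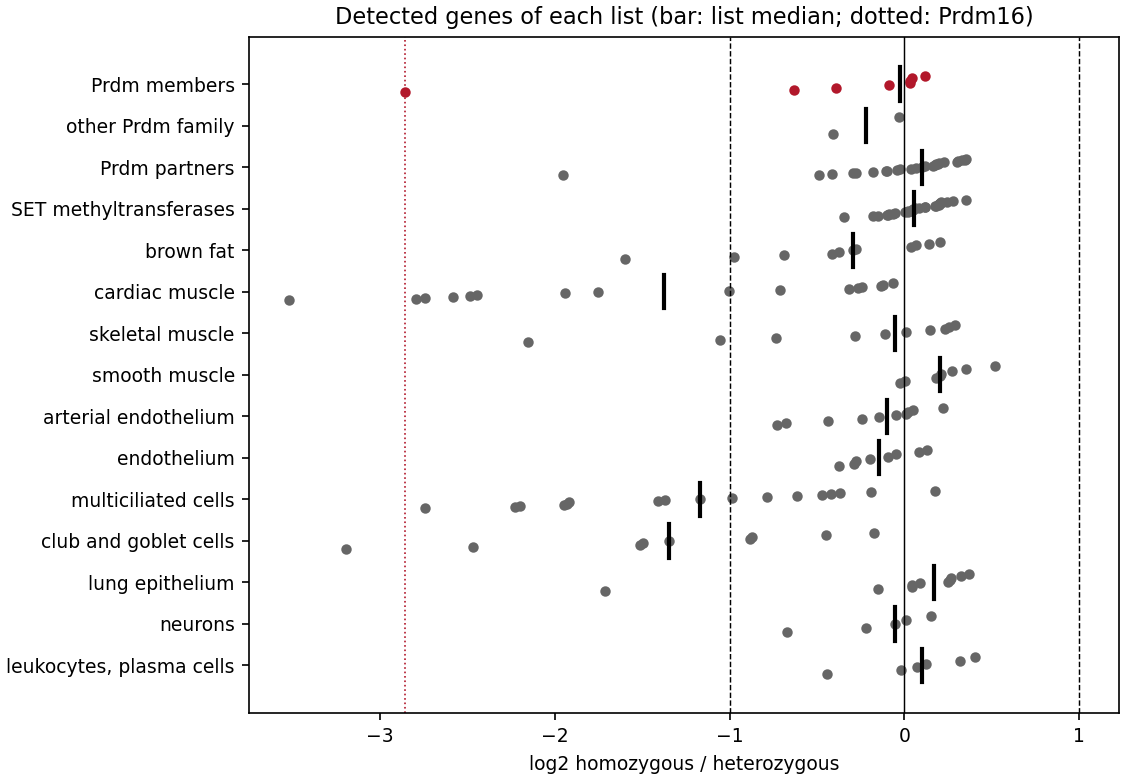
Log2 ratio of homozygous over heterozygous lung (x axis) for the detected genes of each list (rows), with a bar at the list's median, a dotted line at Prdm16 and dashed lines at a 2-fold difference. Prdm16 stands apart from the other Prdm members. Cardiac muscle, multiciliated and club or goblet cell genes are the lists whose medians lie beyond the 2-fold line after loess. With median centring (median of all genes 0.22), cardiac muscle alone passes 2-fold counted from 0. Multiciliated genes also do so when measured from that median.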

How the data were processed

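The lungs of 1 homozygous and 1 heterozygous embryo were hybridised to 1 Agilent array after 1 round of amplification from 100 ng of total RNA each, per the labels' protocols. Both deposited scanner files hold the same bytes and were counted as 1 array. Spot and background brightness were deposited as intensity values, and the processed intensity was background-subtracted, detrended and dye-normalized, per the file headers. The deposited log10 ratio divides the processed red by the processed green signal, as the file headers give it. The scanner software was Agilent Feature Extraction 9.5.3.1, per the submitters' processing notes. The authors' series matrix holds intensity values that equal the processed signal of the matching channel multiplied by 1.68 and floored at 15, found by comparison. Its medians were 138.8 (homozygous) and 139.8 (heterozygous).

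Background was removed by normexp (mean signal against local background median, offset 50), and log2 ratios were loess-normalized with control spots at weight 0, in R 4.3.3 with limma 3.58.1 and data.table (version 1.17.8). The procedure was tested on simulated data in which only bright spots were given a difference. How well it recovers differences at dim probes was not tested. Python 3.11.15, numpy 2.4.6, pandas 2.3.3 and matplotlib 3.10.9 did the rest. Spots flagged as outliers (169) and control spots were dropped, and 0 spots were saturated. The homozygous channel was well above background at 75.6% of 43379 spots and the heterozygous channel at 69.0%. Detection of a probe meant that more than a 0.5 share of its spots passed in either channel, and detected probes of a gene were summarised by their median. Because of the offset, changes of dim probes are understated. Between probes of a gene the median SD of the log2 ratio was 0.16 (7144 genes), and between repeated spots of a probe it was 0.050 (245 probes).

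Names came from the RefSeq genes of GRCm38.p6, for 24372 probes by accession, 6300 by symbol and 2425 by synonym, and 8070 kept the file's name. With 1 sample per genotype the differences have no test. Members, lists, the size rule and the alternatives were chosen with earlier results of these data known. Named genes are the members, the other family genes, Foxj1, the 4 genes on either side of Prdm16 in the order of ratios and, per list, those past 2-fold with the 2 lowest and the highest (the 3 lowest and the highest where more than 5 passed). A few listed genes are not reported here and were left out of the counts and medians of their lists. Neighbouring genes and promoter motifs were added after the ratios had been seen.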

Additional observations from a re-analysis of the deposited data

How the results depend on the processing

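The log2 ratio of Prdm16 was −3.28 with an offset of 0 and −3.46 with the series matrix or the deposited log ratio. The difference between Prdm16 and the median of the other members was −3.30 with an offset of 0 and −3.57 with the series matrix or the deposited log ratio. The number of members at least 2-fold lower was 1 under every one of the 10 alternatives, under which 1.35% to 5.40% of all genes passed that size. Several of these alternatives leave the Prdm16 ratio as it was by construction, and the members were picked from this contrast. Of the other recomputed values, for single family genes, Foxj1 and list medians, 223 moved by less than the scanner error and 17 by more. Most of the 17 came with median centring, which moved the median of all genes to 0.22. The 223 overstate stability. For genes with 1 probe, changes of filter, gene summary or outlier handling left the value as it was, and the series matrix nearly repeats the deposited log ratio. For a list median, the error used was the median error of its genes. The cause was not tested. No paired analysis was possible because each genotype has 1 sample. With 1 lung per genotype and 1 probe for Prdm16, no difference here has a replicate check, and the number of arrays limits the precision.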
